A study of Mus musculus with 6 samples.

Results

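The genes described here are the rows of a gene count table of mouse long-term haematopoietic stem cells (LT-HSCs) that held 10 or more counts in each library sorted for high Asrij and 0 counts in each library sorted for low Asrij. The rule was met by 117 of the 49997 rows, or 0.234%, and no further row was set aside for a symbol holding -ps. The study sorted LT-HSCs from the bone marrow of 4-month-old C57BL/6J mice into an Asrij high and an Asrij low population and profiled both by bulk RNA-seq, with 3 libraries each. Asrij is the protein encoded by Ociad1, and the same strain name stands under genotype for all 6 libraries. The sample labels name no transgene, reporter or antibody behind the sort and do not say whether libraries came from separate mice. The deposited counts carry the name ArjKI_LTHSC, and the labels do not explain its ArjKI part. The genes were chosen by their raw counts in all 6 libraries, and because this rule used the contrast between the populations, the differences of these 117 genes are given as descriptions and carry no test.

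LT-HSCs are rare marrow cells that sustain all blood lineages, and they and their progeny are known to transcribe many genes of other lineages at low levels. Several kinds of low-abundance RNA depend on a second gene. Small nucleolar RNAs (snoRNAs) and many microRNAs are cut out of the introns of host transcripts, antisense transcripts share the position of a gene on the other strand, and processed pseudogenes are copies of messenger RNAs that were reverse-transcribed into the genome. In bulk samples, fewer cells that express a gene and less RNA per cell cannot be told apart.

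The Asrij high libraries held 62732782 to 72855125 counts and the Asrij low libraries 24707012 to 46240743. Ociad1 had 80.2 ± 5.76 CPM (counts corrected for library size with TMM factors) in Asrij high against 51.5 ± 5.72 in Asrij low (SD, n = 3 each; log2 fold change 0.64, adjusted p = 0.0115 by edgeR's quasi-likelihood test). The Ociad1 difference did not pass with library totals (adjusted p = 0.133), with upper quartile factors (0.0834) or without Asrij high replicate 1 (0.0831). The 12 LT-HSC markers were all detected in both populations and were all lower in Asrij high, with a summed level of 544 to 1156 CPM in Asrij high, against 2022 to 2546 in Asrij low. Asrij high replicate 2, at 1156 CPM, stood apart from the other Asrij high libraries, which had 544 and 572 CPM. Markers of other blood and marrow cells differed too: of 20 erythroid genes 10 were higher and 5 lower in Asrij high, and all 10 stromal genes, 9 of 10 macrophage genes and 8 of 10 B and plasma cell genes were lower. The erythroid genes summed to 7013 to 12114 CPM in Asrij high, against 11700 to 81891 in Asrij low, and the stromal genes to 30.5 to 80.03 CPM in Asrij high, against 284 to 1083 in Asrij low. The macrophage genes summed to 52.4 to 60.8 CPM in Asrij high, against 146 to 367 in Asrij low, and the B and plasma cell genes to 18.1 to 25.9 CPM in Asrij high, against 86.8 to 246 in Asrij low. Of 10 genes each, 2 neutrophil genes were higher and 3 lower, 1 megakaryocyte gene was lower, and 4 endothelial genes were lower. Of 10 tested mast cell, basophil and eosinophil genes 4 were lower and 0 higher, and of 6 tested T and NK cell genes 3 and 0. In every Asrij high library 4 mast cell, basophil and eosinophil genes were at 0, and in every Asrij low library 1 T or NK cell gene. No other marker of these lists was at 0 in a whole group. The part of these markers in the results was not tested. Of 21445 genes tested across the table, 4655 (21.7%) were higher and 3797 (17.7%) lower in Asrij high. Without Asrij high replicate 1, 5481 genes passed in place of 8452, and with library totals as the only scaling 3270 were higher and 4856 lower.

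Long non-coding RNAs and pseudogenes made up most of the 117 genes. RefSeq (GRCm38.p6) calls 44 of them long non-coding RNAs (37.6%), 32 protein-coding (27.4%), 27 pseudogenes (23.1%) and 14 small RNAs (11.97%), of which 7 are snoRNAs, 3 small nuclear RNAs, 2 microRNAs, 1 a transfer RNA and 1 a guide RNA. Among all 19305 rows with 10 or more counts in each Asrij high library, 69.1% were protein-coding, 14.3% long non-coding, 13.1% pseudogenes and 3.42% small RNAs. The distance was smaller at matched level. At a mean of 0.2 to 1 CPM in Asrij high, 24.5% of the 94 genes without counts in Asrij low were protein-coding and 40.4% long non-coding, against 36.8% and 28.8% of 3154 other rows in that range. Pseudogenes took 24.5% and 25.4% of these 2 sets.

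Levels were low. The mean in Asrij high ran from 0.176 to 6.15 CPM with a median of 0.404 CPM, and only 8 of the 117 genes held 100 or more counts in each Asrij high library. Set against a floor of 3 counts summed over the Asrij low group (0.0275 CPM), the genes were at least 6.404-fold to at least 223-fold higher in Asrij high. The median of these lower bounds was 14.7-fold, 90 genes had a bound of 10-fold or more and 14 a bound of 50-fold or more. Such bounds cover counting error only, as does each fold given as at least a value below. In Asrij low, 6.61% to 13.0% of rows at 1 to 2 CPM in the other 2 libraries were at 0. A level above the floor is therefore not excluded. The bounds also rest on the depth of Asrij low. Without Asrij low replicate 1, its deepest library, every bound was 1.99 times lower. The median was then 7.39-fold and 39 genes had a bound of 10-fold or more. CPM are not corrected for gene length, and per kilobase of exon the ranks differ: Asb17os had 5.63, Asb17 2.05, Mc1r 0.901 and the short Snord52 24.9 CPM per kilobase in Asrij high.

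Several of the named genes are known from germ cells. Asb17 encodes an ankyrin repeat and SOCS box protein that was described in testis, and it lies at chr3:153844247-153853615 on the plus strand. It held 346, 211 and 408 counts in Asrij high replicates 1 to 3 and 0 in each Asrij low library. The antisense transcript Asb17os, inside the span of Asb17 on the minus strand (chr3:153850374-153852424), held 366, 218 and 399 counts in the same libraries and 0 in Asrij low. The 2 rows moved together across the Asrij high libraries, and since the strand setting of the counting is not given in the sources used here, their reads cannot be told apart. Their means were 5.28 ± 1.71 and 5.40 ± 1.74 CPM (SD, n = 3), at least 192-fold and at least 196-fold above the Asrij low floor.

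Tex21, a testis-expressed gene at chr12:76198686-76246758, held 171, 162 and 116 counts in Asrij high and 0 in Asrij low (2.48 ± 0.693 CPM, at least 90.1-fold). Thegl, named for its likeness to a spermatid protein and located at chr5:77016023-77061541, held 104, 49 and 106 counts in Asrij high and 0 in Asrij low (1.43 ± 0.591 CPM, at least 51.9-fold). The counts of Tex21 were lowest in replicate 3 and those of Thegl in replicate 2, so the genes did not share one order of libraries. Lower down came Spata48 (0.473 CPM), the sperm-egg fusion gene Llcfc1 (0.425 CPM) and Dazl (0.406 CPM), an RNA-binding protein of germ cells. A list of 16 germ cell and testis markers, Dazl among them, held few counts otherwise. Of the 15 others, 7 held 0 counts in every Asrij high library and 8 in every Asrij low library, including the sperm genes Prm2, Tnp1 and Acrv1, which were at 0 in all 6. Of the 4 others that could be tested, the germ cell helicase Ddx4 alone passed (5.41 ± 1.68 CPM in Asrij high, against 1.74 ± 0.675 in Asrij low; log2 1.64, adjusted p = 0.0216 by edgeR's quasi-likelihood test). Ddx4 no longer passed when Asrij high replicate 1 (adjusted p = 0.0943), Asrij high replicate 3 (0.107) or Asrij low replicate 1 (0.0596) was left out.

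Receptors and signals were led by Mc1r, the melanocortin 1 receptor, which on pigment cells binds alpha-melanocyte-stimulating hormone. The gene (chr8:123407082-123410744, plus strand) held 262, 170 and 155 counts in Asrij high and 0 in Asrij low, a mean of 3.28 ± 1.34 CPM and at least 119-fold above the floor. Replicate 1 was the highest of the 3 libraries. Mc1r ends 809 bases before Tubb3, a neuronal tubulin that was higher in Asrij high (log2 3.57 ± 0.91 SE, adjusted p = 0.0126 by edgeR's quasi-likelihood test; 0.127 without Asrij high replicate 1), while Tcf25 on its other side, 2908 bases away, did not pass (log2 0.19). Of the defining pigment cell genes, Tyr, Dct and Gpr143 were at 0 in all 6 libraries, and the 10 pigment cell markers summed to 8.50 to 13.1 CPM in Asrij high, against 15.7 to 20.5 in Asrij low.

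The other melanocortin genes differed in direction. The ACTH receptor Mc2r was higher in Asrij high (13.3 ± 3.64 CPM, against 1.60 ± 0.799 in Asrij low; log2 3.04 ± 0.46 SE, adjusted p = 0.00129 by edgeR's quasi-likelihood test). Mc5r was lower, at 13.9 ± 8.46 CPM in Asrij high, against 71.9 ± 16.2 in Asrij low (log2 -2.37 ± 0.39 SE, adjusted p = 0.00182), and Mrap, an accessory protein of Mc2r, was also lower (log2 -3.65, adjusted p = 0.0309). The Mrap call was lost in 7 of 12 alternatives, leaving out any Asrij high library among them (adjusted p = 0.126 to 0.134). The hormone precursor Pomc and the antagonist Agrp did not pass. Mc3r and Mc4r held at most 8 counts in any library.

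Tac2, the precursor of the neuropeptide neurokinin B (chr10:127724478-127731768), held 127, 71 and 164 counts in Asrij high and 0 in Asrij low (1.98 ± 0.751 CPM, at least 71.8-fold). Replicate 2 held the fewest counts. The olfactory receptor Olfr419 averaged 0.583 CPM in Asrij high.

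Enzymes and transporters formed the next group. Acnat1, a peroxisomal acyltransferase that joins fatty acids to taurine, lies at chr4:49443532-49481315 on the minus strand. It held 167, 131 and 285 counts in Asrij high and 0 in Asrij low, a mean of 3.15 ± 1.13 CPM and at least 114-fold above the floor. Its paralogue Acnat2 is 94.1% identical over 1425 aligned bases and held 3, 6 and 8 counts in Asrij high and 0 in Asrij low, so reads of the 2 genes may have been split. Baat, the bile acid conjugating enzyme of the same family, held 2, 10 and 18 counts in Asrij high and 0 in Asrij low. Both were under 10 counts in at least 1 Asrij high library and are not among the 117 genes.

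Of the 10 other acyl-CoA thioesterase genes that were tested, Acot13 was higher in Asrij high (log2 1.35 ± 0.32 SE, adjusted p = 0.00908 by edgeR's quasi-likelihood test), Acot1 (log2 -1.34) and Acot11 (log2 -1.99) were lower, and 7 did not pass. In the ASB family of Asb17, 11 other members were tested. Asb6 was higher (adjusted p = 0.00871 by edgeR's quasi-likelihood test), Asb2 (log2 -3.36), Asb7 (log2 -0.65) and Asb14 (log2 -3.50) were lower, and 7 did not pass. Median log2 fold changes were -0.65 in both families and -0.02 over all genes tested. Over the melanocortin, thioesterase and ASB lists together 10 of the 26 tested genes passed (38.5%), close to the 39.4% of all tested genes. Without Asrij high replicate 1, 5 passed, when Mrap, Acot1, Asb6, Asb7 and Asb14 no longer did. Acot1 also failed when Asrij high replicate 3 or Asrij low replicate 1 or 3 was left out (adjusted p = 0.0505 to 0.0968 by edgeR's quasi-likelihood test), Asb7 without Asrij low replicate 1 (0.0702) or the count filter (0.0700), and Asb14 without Asrij high replicate 2 (0.0645) or Asrij low replicate 3 (0.0692).

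Further metabolic genes had lower levels. Of these, Slc44a4 came nearest the minimum of the rule, with 10 counts in Asrij high replicate 1. Folr1, the folate receptor alpha, averaged 0.557 CPM in Asrij high, and its neighbour Folr2, a folate receptor of macrophages 1141 bases away, was lower in Asrij high (0.0732 CPM, against 1.06 CPM in Asrij low; log2 -3.79 ± 1.19 SE, adjusted p = 0.0308 by edgeR's quasi-likelihood test). Folr2 no longer passed when Asrij low replicate 3 (adjusted p = 0.128) or any one Asrij high library (0.0518 to 0.126) was left out. Cth, which makes cysteine from cystathionine, averaged 0.552 CPM. The neutral amino acid transporter Slc6a19 averaged 0.506 CPM, the arginine-cleaving enzyme Arg1 0.362 CPM and the choline transporter-like gene Slc44a4 0.361 CPM in Asrij high. In Asrij low none of these 5 members had a count.

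Drp2, a dystrophin relative of myelinating Schwann cells on the X chromosome (chrX:134404124-134456574), held 51, 109 and 110 counts in Asrij high and 0 in Asrij low (1.44 ± 0.435 CPM, at least 52.2-fold). Replicate 1 held the fewest counts. Aknad1 (chr3:108739559-108782309) held 109, 68 and 209 counts in Asrij high and 0 in Asrij low (2.08 ± 1.05 CPM, at least 75.5-fold). Erich5 (chr15:34453312-34473892) held 71, 72 and 41 counts in Asrij high and 0 in Asrij low (1.02 ± 0.354 CPM, at least 37.0-fold). Aknad1 was thus highest in replicate 3, in which Erich5 was lowest.

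The gap junction gene Gjb2 averaged 0.771 CPM with 57, 16 and 67 counts in Asrij high, and the membrane protein Lingo3 0.685 CPM. Pitpnm3, a phosphatidylinositol transfer protein, averaged 0.574 CPM, Saxo2 0.490 CPM, the RING finger gene Rnf223 0.347 CPM and Siah3, a relative of the Siah ubiquitin ligases, 0.336 CPM. Pou5f1, the pluripotency factor Oct4, held 16, 44 and 15 counts in Asrij high and 0 in Asrij low (0.404 ± 0.251 CPM, at least 14.7-fold). Its replicate 2 stood above the other libraries, whereas Gjb2 was lowest there. Med9os, an antisense transcript starting 67 bases from Med9, averaged 0.538 CPM, and Med9 itself was higher in Asrij high (log2 0.96, adjusted p = 0.00868 by edgeR's quasi-likelihood test).

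**Figure D1:**
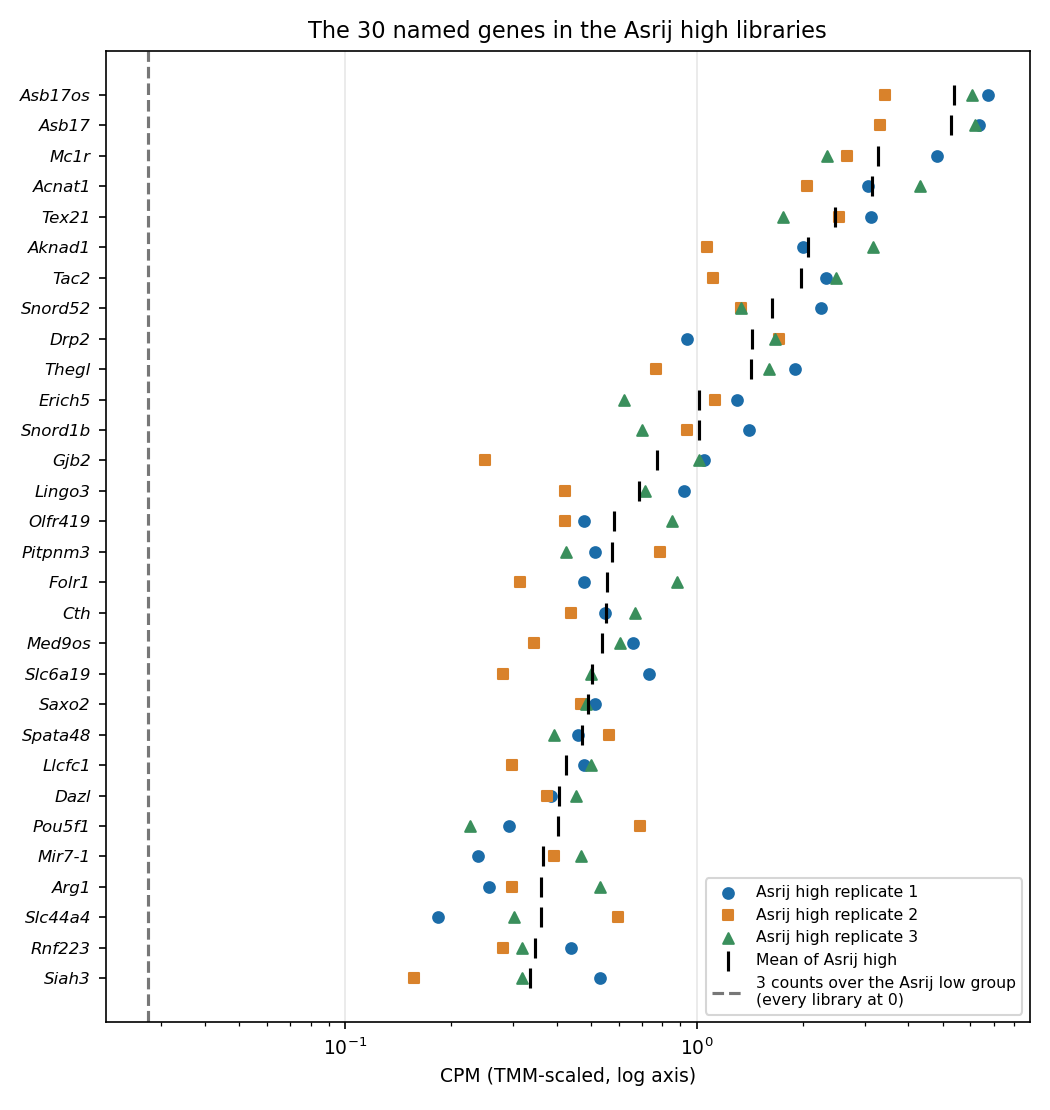
Level of each of the 30 named genes in the 3 Asrij high libraries, in TMM-scaled CPM on a log axis, with the mean as a bar. The dashed line at 0.0275 CPM marks 3 counts over the Asrij low group, in which every one of these genes had 0 counts; every point lies to its right, and most spreads between replicates cover less than a 3-fold range.

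Of the gene models without a name, Gm12224 had the highest mean CPM of all 117 genes, without regard to length. This antisense long non-coding RNA lies inside Acsl6 (chr11:54340342-54345245, minus strand) and held 420, 269 and 429 counts in Asrij high and 0 in Asrij low (6.15 ± 1.77 CPM, at least 223-fold). The non-coding genes 1700063H04Rik (3.69 CPM), Gm40372 (2.06 CPM), Gm13848 (1.19 CPM) and Gm46659 (1.17 CPM) and the pseudogene Gm9353 (2.68 CPM) followed among the models. No function is annotated for them in the files used here.

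The named small RNAs were 2 box C/D snoRNAs, which guide 2′-O-methylation of other RNAs, and the precursor of a microRNA. Their sequences are shown because RNAs this short leave few positions for reads. In the snoRNAs (GENCODE M21, GRCm38) the capitals mark the C box as TGATGA and the D box as CTGA. Both boxes were found in Snord52 (chr17:34950952-34951017, minus strand), and in Snord1b (chr11:116674148-116674222, plus strand) only the D box letters were found.
Snord52: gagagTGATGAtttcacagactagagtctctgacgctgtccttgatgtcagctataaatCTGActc
Snord1b: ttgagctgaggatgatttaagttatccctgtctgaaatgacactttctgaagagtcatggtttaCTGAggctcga

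Snord52 held 123, 85 and 88 counts in Asrij high and 0 in Asrij low (1.64 ± 0.533 CPM, at least 59.6-fold). Its 66 bases lie in exons of the host 1110038B12Rik, which held 2593, 2811 and 2648 counts in Asrij high and 1174, 591 and 305 in Asrij low. The host was therefore present in both populations (log2 1.29, adjusted p = 0.00398 by edgeR's quasi-likelihood test). The counts of Snord52 equalled 4.74%, 3.02% and 3.32% of those of the host row in Asrij high. Whether the host row also counts these reads is not given in the sources used here. By counting error alone, 0 counts beside 2070 host counts in Asrij low allow a ratio of up to 0.145%. Snord1b held 77, 60 and 46 counts in Asrij high and 0 in Asrij low (1.02 ± 0.364 CPM, at least 37.0-fold), inside Snhg16 (log2 0.98, adjusted p = 0.00912, but 0.0671 without Asrij high replicate 1). Its near copy Snord1c, 97.4% identical, held 47, 8 and 20 counts in Asrij high and 8, 18 and 0 in Asrij low, so counts of the pair are uncertain.

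Mir7-1 (chr13:58392779-58392886, minus strand), inside the RNA-binding protein gene Hnrnpk, held 13, 25 and 31 counts in Asrij high and 0 in Asrij low (0.367 ± 0.118 CPM, at least 13.3-fold). Mir6546, in Fcgr3, was the other microRNA gene, at 0.184 CPM in Asrij high. These rows count reads over the hairpin region of a library of long RNA and are no measure of the mature microRNAs. The mature sequences (RefSeq, GRCm38.p6) are given 5′ to 3′ with the seed, bases 2 to 8, in capitals, and no 2 of them share a seed.
miR-7a-5p: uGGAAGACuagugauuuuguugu
miR-7a-1-3p: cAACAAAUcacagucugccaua
miR-6546-5p: aGGCGCCUcugagcuugugcuugu
miR-6546-3p: gAGCGAAGcccaagcgccaga

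Many of the 117 genes lie in or beside another gene. The spans of 55 (47.0%) overlap another gene's span, close to the 53.6% of rows with 10 or more counts in each Asrij high library and the 42.8% of all rows. For 51 of them the overlapping gene is not itself one of the 117. Of these 51 overlapping genes, 24 were higher in Asrij high, 0 were lower, 17 did not pass and 10 were not tested, where 21.7% of all tested genes were higher and 17.7% lower. With library totals as the scaling 23 were higher and 1 lower, and leaving out single libraries gave 20 to 27 higher. The median log2 fold change of the overlapping genes was 1.57, against -0.02 over all tested genes. These genes were reached through genes chosen by the contrast and may share reads with them. Genes overlapping other rows of like level were not compared.

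Examples span fatty acid metabolism and the cell cycle. The acyl-CoA synthetase Acsl6, which holds Gm12224 on the opposite strand, had counts of 2495, 1326 and 2748 in Asrij high and 30, 30 and 20 in Asrij low (log2 5.54 ± 0.42 SE, adjusted p = 1.77e-04 by edgeR's quasi-likelihood test). Tlcd4, around the pseudogene Gm9353, had a log2 fold change of 5.69 ± 0.31 SE. The transcription factor Pax9, around Gm46352, had 5.44 ± 1.04 SE. Topoisomerase Top2a, polyamine enzyme Odc1 and the DNA repair gene Fancd2, which each hold a small or non-coding RNA of the set, had log2 fold changes of 3.01, 2.17 and 3.06.

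The 0 counts in Asrij low were also set against the surrounding gene. This was done for the 34 genes that lie inside a gene outside the set. The ratio of their counts to those of the surrounding gene in Asrij high was applied to that gene's counts in Asrij low. The ratio implied fewer than 3 counts over the Asrij low libraries for 4 genes, 3 to under 10 for 11 genes, and 10 or more for 19 genes. The snoRNA LOC115487886 in Top2a, for instance, would have had 2.89 counts, Gm9353 in Tlcd4 5.47, Gm12224 in Acsl6 13.6, Snord52 76.1 and Mir7-1 22.6, where 0 were counted. Several of the 34 genes, Gm12224 among them, lie on the opposite strand and are no part of the surrounding gene's transcript. Gm40356, also on the opposite strand, held 60 counts beside 32 of Cttnbp2 in Asrij high and gave the highest implied number, 124. All 34 genes were chosen for their 0 counts, so the shortfall is a description.

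Of the 62 genes that overlap nothing, 38 have a neighbour within 5000 bases. Among the 45 distinct neighbours, 15 were higher in Asrij high, 2 lower, 17 did not pass and 11 were not tested. Of the 34 tested, 44.1% were higher and 5.88% lower, where 21.7% of all tested genes were higher and 17.7% lower. Llcfc1 lies 612 bases from the blood group gene Kel (log2 2.07) and Saxo2 42 bases from the ribosome assembly GTPase Efl1 (log2 1.12), both higher in Asrij high. Pitpnm3, which overlaps Gm46286 and is not among the 62, lies 156 bases from the mitotic gene Pimreg (log2 1.58), also higher. Pimreg no longer passed when Asrij low replicate 3 (adjusted p = 0.0551 by edgeR's quasi-likelihood test) or Asrij high replicate 2 (0.0631) was left out. Farther off, at 7648 bases from Tex21, the folate enzyme Mthfd1 was higher as well (log2 3.07). Slc44a4 and Tac2 lie within 5000 bases of genes that did not pass. The neighbours too were reached through genes chosen by the contrast, and neighbours of other rows of like level were not compared.

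Most pseudogenes of the set that could be compared resembled another transcript. Of 23 pseudogenes with a GENCODE transcript, 21 matched another transcript at 80% identity or more over at least 50% of their length, and 7 at 95% or more. The 21 best matches were distinct genes, of which 20 were tested. By the same test 17 were higher in Asrij high and 0 lower, where 21.7% of all tested genes were higher and 17.7% lower. With library totals as the scaling, 12 of the matches were higher and 0 lower. They include the heat shock protein Hsp90ab1 (88.4% identical to Gm7198; log2 1.19), cytochrome c (Cycs, 96.3% identical to Gm11625; log2 2.42), the ribosomal protein Rpl13a (94.9% identical to Gm6023; log2 0.81, not past the threshold with library totals, with upper quartile factors or without replicate 1 of either group), the ribosome recycling factor Abce1 (93.6% identical to Gm6640; log2 1.84) and the spindle protein Prc1 (93.3% identical to Gm13176; log2 3.21). Some best matches were gene models: Gm12033 was higher, Gm5173 did not pass, and Gm9466 held 0, 4 and 0 counts in Asrij high and 0 in Asrij low. How reads that map to several places were counted is not given in the sources used here, so counts of the pseudogenes are uncertain. Some pseudogenes matched many genes, 245 in the case of Gm6283, and only the best match of each was used. Their matches were reached through genes chosen by the contrast and may share reads with them. Matches of other pseudogenes of like level were not compared.

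**Figure D2:**
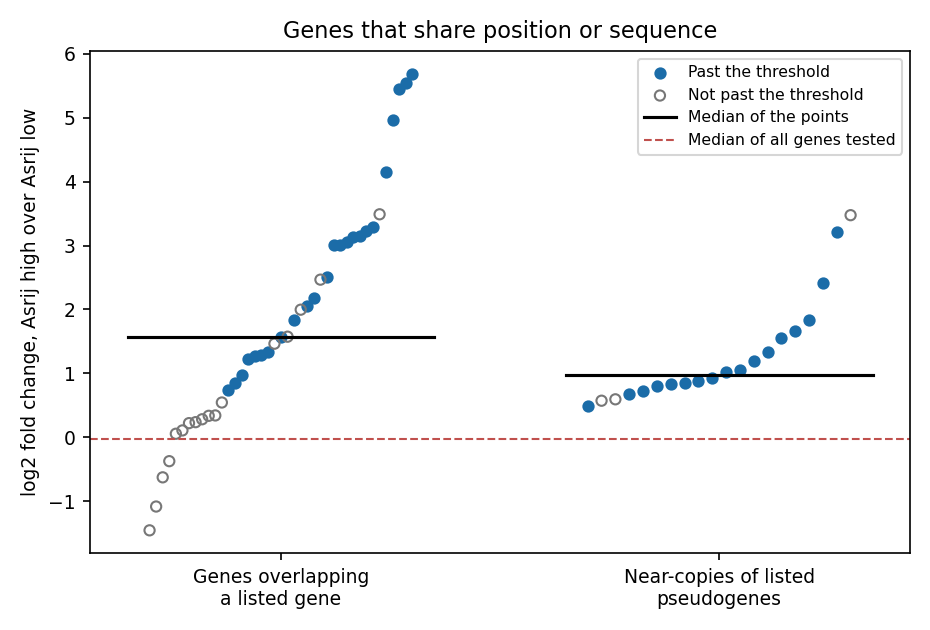
log2 fold change, Asrij high over Asrij low, of the tested genes that overlap a gene without counts in Asrij low (left) and of the best matching transcripts of the pseudogenes among them (right); filled points passed edgeR's test. The medians lie at 1.57 and 0.97, above the dashed median of all tested genes at -0.02, and every filled point is above 0. Both sets were reached through genes chosen by the contrast.

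Promoters of the 117 genes held few CG dinucleotides, a feature that separates most housekeeping promoters from tissue-restricted ones. RefSeq (GRCm38.p6) windows from 250 bases before to 50 after a transcription start were at hand for 61 of the 117 genes, 75 windows in all. The median window held 5 CG dinucleotides and 50.3% G or C, against 17 and 59.0% for all rows with 10 or more counts in each Asrij high library. The distance was smaller at matched level. Other rows with 0.2 to 1 CPM in Asrij high had a median of 7 CG dinucleotides and 54.0% G or C, and 31.7% of their windows held 15 or more CG dinucleotides, against 23.8% for genes of the set in that range.

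The windows of Mc1r (chr8:123406832-123407131, plus strand) and Tac2 (chr10:127724228-127724527, plus strand), with 4 and 3 CG dinucleotides, are shown beside that of Gjb2 (chr14:57104653-57104952, minus strand), with 27, as examples of few and many; windows of the set held 0 to 38. Capitals mark each CG.
Mc1r: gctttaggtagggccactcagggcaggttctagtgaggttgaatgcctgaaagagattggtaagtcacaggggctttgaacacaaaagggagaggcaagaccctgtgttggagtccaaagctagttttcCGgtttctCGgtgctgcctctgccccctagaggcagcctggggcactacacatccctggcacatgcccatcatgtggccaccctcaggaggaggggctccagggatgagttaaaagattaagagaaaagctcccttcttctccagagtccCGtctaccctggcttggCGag
Tac2: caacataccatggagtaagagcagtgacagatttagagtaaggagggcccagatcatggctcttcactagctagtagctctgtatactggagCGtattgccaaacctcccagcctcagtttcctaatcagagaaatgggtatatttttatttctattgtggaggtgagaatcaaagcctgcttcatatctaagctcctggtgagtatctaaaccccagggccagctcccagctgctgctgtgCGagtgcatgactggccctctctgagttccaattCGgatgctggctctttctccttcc
Gjb2: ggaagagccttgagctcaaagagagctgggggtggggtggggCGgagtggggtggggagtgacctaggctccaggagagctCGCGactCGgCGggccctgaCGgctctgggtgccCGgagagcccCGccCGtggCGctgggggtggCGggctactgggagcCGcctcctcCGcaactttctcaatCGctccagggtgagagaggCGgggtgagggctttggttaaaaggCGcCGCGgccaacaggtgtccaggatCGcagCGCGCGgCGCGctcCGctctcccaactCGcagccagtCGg

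Simple motifs were searched on both strands in the same windows. The GATA letters AGATAA were in 9.33% of the set's windows and 11.2% of windows of all table rows, the CACCC letters CCACCC in 32.0% and 31.5%, and the TATA letters TATAAA in 17.3% and 13.6%. At 0.2 to 1 CPM, AGATAA was in 7.94% of the set's windows and 11.2% of the others, CCACCC in 30.2% and 33.2%, and TATAAA in 19.0% and 11.7%. No motif contains another, although matches may share bases. A match is a description of the window, and these shares were not tested.

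**Figure D3:**
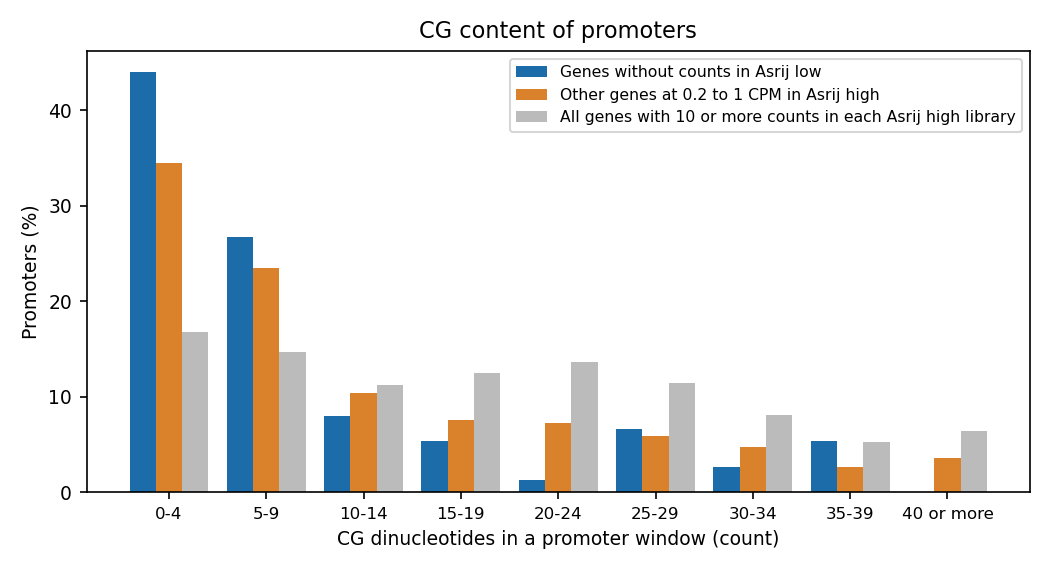
Share of promoter windows (percent, vertical axis) by the number of CG dinucleotides they hold, for the genes without counts in Asrij low (75 windows), other genes at 0.2 to 1 CPM in Asrij high (1929 windows) and all genes with 10 or more counts in each Asrij high library (16227 windows). Windows with 0 to 4 CG dinucleotides take 44.0% of the first set, 34.4% of the second and 16.8% of the third.

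Within Asrij high the genes were most often lowest in replicate 2. That library was the lowest of the 3 for 60 of the 117 genes, replicate 3 for 34 and replicate 1 for 23, and the highest library was replicate 1 for 53, replicate 3 for 41 and replicate 2 for 23. The summed level of the 117 genes was 100 CPM in replicate 1, 68.5 CPM in replicate 2 and 95.9 CPM in replicate 3. Replicate 2 was also the Asrij high library with the highest summed LT-HSC markers, and its part in the result was not tested. For single genes the highest library exceeded the lowest by a median of 1.87 times, by less than 2 times for 66 genes and by more than 3 times for 15, and the widest gap was 6.97 times, in Gm11685.

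The reverse pattern was rarer. Only 11 of the 49997 rows (0.0220%) held 0 counts in each Asrij high library and 10 or more in each Asrij low library. They include the urate transporter Slc22a12, with 0 counts in Asrij high and 10, 12 and 18 in Asrij low, the peroxisomal oxidase Pipox, with 0 counts in Asrij high and 37, 12 and 22 in Asrij low, and Nkain3, with 0 counts in Asrij high and 15, 36 and 16 in Asrij low. All 3 stayed under 40 counts per library. Of the remaining 8 rows, 7 are long non-coding RNAs and 1 is a pseudogene.

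Both numbers changed with the minimum count, with scaling and with the libraries used. With a minimum of 20, 47 rows held at least that many counts in each Asrij high library and 0 in Asrij low, and 0 rows showed the reverse. With a minimum of 5 there were 236 and 28. When every count was scaled down to the total of the smallest library, 32 rows kept 10 or more in each Asrij high library with 0 in Asrij low, and 2 showed the reverse. Such scaling turns no count into 0, so counts of 0 still rest on the full depth of each library. Leaving out Asrij low replicate 1, 2 or 3 gave 277, 218 or 227 rows, leaving out an Asrij high library 142 to 174, and each of these lists contains all 117 genes by construction. The reverse rule gave 25 to 81 rows when 1 library was left out. Just inside the rule, 22 genes had exactly 10 counts in their lowest Asrij high library, and just outside it 12 rows had 9 and 35 rows had 8. On the other side, 9 rows had 1 count summed over Asrij low, 22 had 2 and 11 had 3, all counted without symbols holding -ps.

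**Figure D4:**
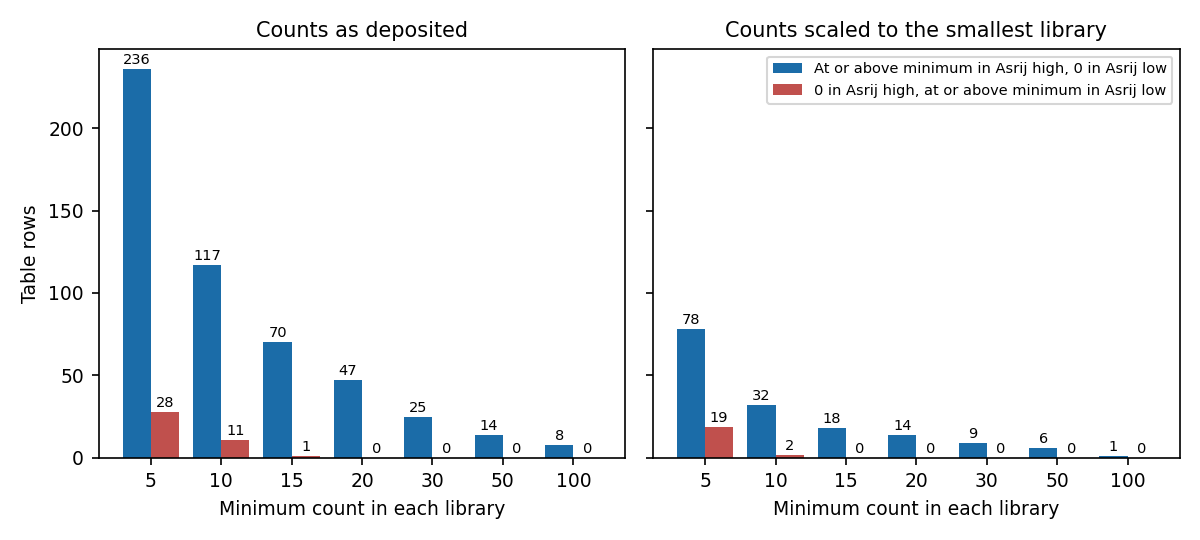
Number of table rows (vertical axis) at or above a minimum count in each Asrij high library with 0 in Asrij low, and the reverse, for minimum counts of 5 to 100, with counts as deposited (left) and scaled down to the smallest library total (right). At a minimum of 10 the pairs are 117 and 11 as deposited and 32 and 2 when scaled. Scaling turns no count into 0, so the right panel does not compare the groups at equal depth.

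Counts of 0 at such levels were common in the Asrij low libraries. For each library, rows were taken whose mean in the other 2 libraries of its group was 0.2 to 1 CPM. In the Asrij high libraries 0.88% to 2.87% of these rows were at 0, and in the Asrij low libraries 40.1% to 47.0%. Likewise, 39 to 146 rows held 10 or more counts in 1 Asrij high library and 0 in the other 2, whereas 719 to 1421 rows did so among the Asrij low libraries. Asrij high replicate 1, with 62732782 counts, had 2.87% at 0, and Asrij low replicate 1, with 46240743 counts, had 40.1%. Genes without counts in Asrij low made up 4.59% of rows at 0.2 to 0.5 CPM in Asrij high, 1.47% at 0.5 to 1 CPM, 0.504% at 1 to 2 CPM and 0.166% at 5 to 10 CPM.

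Low counts were also mostly even numbers. Of counts from 1 to 20, 72.8% to 79.4% were even in each of the 6 libraries, against 49.3% to 50.2% of counts above 200, and 63.8% of the 351 Asrij high counts of the 117 genes were even. Rows with exactly 2 counts were 3.58 to 5.28 times as many as rows with 10 counts in Asrij high, and 1.22 to 1.33 times as many in Asrij low. How far these features of low counts shaped the list of 117 genes was not tested.

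**Figure D5:**
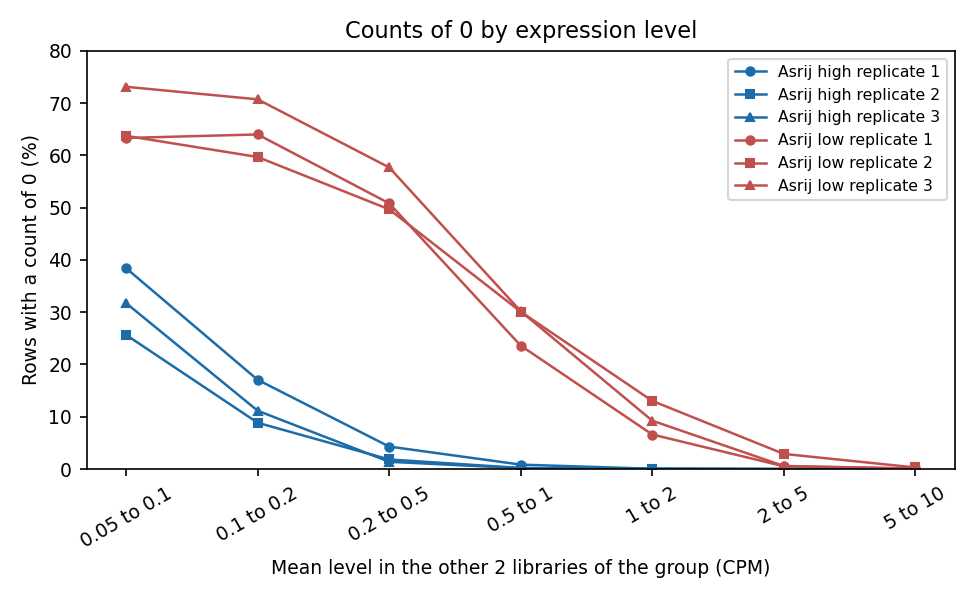
Share of rows with a count of 0 in a library (percent) by the mean CPM of the row in the other 2 libraries of the same group, for the 3 Asrij high and the 3 Asrij low libraries. At 0.2 to 0.5 CPM the Asrij high libraries lie between 1.39% and 4.30% and the Asrij low libraries between 49.7% and 57.7%; at 5 to 10 CPM all are under 1%.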

How the data were processed

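RNA was extracted from sorted cells, depleted of ribosomal RNA and made into libraries with a directional kit, per the labels' protocols, although the molecule field names polyA RNA. The authors deposited whole-number counts per gene symbol, not normalized. The submitters' processing notes name mm10 and the tools HISAT2, Subread, SAMtools and FastQC; not given in the sources used here: how strands and reads with several map positions were counted, the annotation, and tool versions.

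From these counts, CPM were computed with TMM factors. All genes were tested with edgeR 4.0.16 (R 4.3.3; quasi-likelihood test, filterByExpr defaults, 21445 genes, Benjamini-Hochberg threshold 0.05), checked on simulated data; DESeq2 1.42.0 was an alternative. The filter left 83 of the 117 genes. Totals of 24707012 to 72855125 set the precision: by counting error alone, 0 counts over Asrij low allow 3 counts, or 0.0275 CPM. P-values measure spread between libraries that may be technical.

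The genes and lists were chosen with earlier results of these data known. Named genes are the 30 with proper symbols and no pseudogene call with the highest mean CPM in Asrij high, the 12 highest in every library, plus 6 gene models; Mir6546, the opposite-direction rows, and the hosts, neighbours and matches given as examples were chosen after their values were seen. Positions came from RefSeq GRCm38.p6, in which all 117 were found, and transcripts of 87 from GENCODE M21, compared with blastn 2.17.0. Asip was not matched in the melanocortin list.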

Additional observations from a re-analysis of the deposited data

How the results depend on the processing

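The number of genes without counts in Asrij low, 117, was 236 with a minimum of 5, 47 with 20, 32 at the smallest library total, 159 with up to 3 counts over Asrij low, and 142 to 277 without 1 library; the reverse number, 11, was 28, 0, 2, 30 and 25 to 81. Leaving out Asrij high replicate 2 and Asrij low replicate 3 together, an alternative added after seeing the data, gave 312 and 144. Fewer libraries relax both rules by construction, and scaling to the smallest total turns no count into 0. Replicate 2 was lowest for 28 of the 47 genes with a minimum of 20, for 44 of the 83 left by the filter and for 53 of 117 with library totals. Genes changed across the table numbered 8452, 8126 with library totals, 8639 with upper quartile factors, 10161 by DESeq2, 8501 without a filter and 5481 to 8935 without 1 library; the share higher in Asrij high was 55.1%, but 40.2% with library totals, which moved the median log2 fold change by -0.27, 39.9% with upper quartile factors and 47.9% by DESeq2. The family lists had 10 calls, and 5 to 11 without 1 library. Of 32 named genes outside the set that passed, 20 did so in every alternative that tested them and 11 of the 12 others failed without Asrij high replicate 1. The lower bounds of the 12 described genes moved by less than the SD between Asrij high libraries in 85 of 96 recalculations. The other 11 all came from leaving out Asrij low replicate 1, which lowered every bound 1.99 times. Leaving out a single Asrij high library cannot move a mean by that SD, so those recalculations could not have come out otherwise. Leaving out an Asrij low library, all at 0 for these genes, rescales every bound alike. The 85 are therefore no measure of stability. With the replicate number as a block, 8088 genes and 10 family genes passed; deviations of same-numbered libraries correlated at 0.0126, 0.0460 and 0.225, so the numbers were not taken to pair the libraries. Counts near 10 and totals as low as 24707012 limit what a count of 0 can show.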
